A study of Mus musculus with 27 samples.

Results

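Collagen genes were followed by name: the family is every protein-coding gene whose symbol reads Col, a number, the letter a and a second number, which gave 44 of the 48440 genes in the count table. They were grouped by the kind of assembly their chains form, with 11 fibrillar genes, 6 basement membrane genes, 9 FACIT genes (fibril-associated collagens with interrupted helices), 6 beaded filament genes and 12 other genes. Of the 44, 38 passed the filter on low counts and were tested among 18684 genes. The other 6 were Col9a1 (6 counts over all libraries, 0 in 22 of them), Col26a1 (27 counts), Col25a1 (34 counts), Col6a5 (42 counts), Col19a1 (63 counts) and Col6a6 (72 counts), and every count of tested members leaves them out.

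Collagens are the main structural proteins of the extracellular matrix, and fibroblasts are their chief source in the lung. Fibrillar collagens form the load-bearing fibres of the interstitium, type IV collagens form the network of basement membranes, FACIT collagens sit on the surface of fibrils, and type VI collagens form beaded microfilaments around cells. Procollagen chains are hydroxylated and folded in the endoplasmic reticulum, trimmed outside the cell and cross-linked by lysyl oxidases. Expression of these genes by lung fibroblasts is known to change with growth factors, proliferation state and fibrosis.

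The 27 RNA libraries came from cultured primary lung fibroblasts (Wild-type, C57BL/6) kept at 3% O2, with 3 in each of 9 groups. KU60019 is a small-molecule inhibitor of ATM, the kinase that signals DNA double-strand breaks, and DMSO is its solvent. The groups were KU60019 at 3 uM for 15 d, 10 Gy of X-rays followed by 10 d of culture (irradiated, the positive control for senescence in the series' design), DMSO for 15 d, KU60019 for 15 d or DMSO for 15 d and then 20 d without it, KU60019 for 35 d, DMSO for 35 d, and KU60019 for 35 d or DMSO for 35 d and then 20 d without it. Groups with the added 20 d are called withdrawn here, and all treated groups share the strain, genotype and cell type of their DMSO group. Irradiated cultures, 10 d after X-rays, have no DMSO group of the same time and are set against DMSO 15 d. Irradiation and culture time cannot be told apart in that comparison. Each group holds a library ending in _705, _715 and _716 in its title, and values of single libraries are given in that order. Whether these endings stand for separate animals or cultures is not in the labels, and the spread behind the p-values may be technical.

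Libraries held 20659745 to 50859493 counts (median 31265114), and rRNA took over 0.4% of the counts in 4 of them, 1 irradiated, 1 DMSO withdrawn after 15 d and 2 DMSO withdrawn after 35 d. Of 8 fibroblast markers read beside the cell label, none was at 0 in any group. They summed to 5437 CPM (a count scaled to the library's total) in the lowest library, S19_705 of DMSO withdrawn after 35 d. That library had 11664 CPM of 6 pericyte and smooth muscle markers, so these sums alone do not settle the label. Several libraries stood apart. DMSO withdrawn after 35 d had 852 to 1067 CPM of 4 proliferation markers, against 17.3 to 148 CPM in every other library. Library S11_715 of KU60019 withdrawn after 15 d had 122 CPM of 6 chondrocyte markers, against 3.09 to 22.1 CPM in the rest. Library S2_715 of DMSO 15 d had less collagen RNA than the other libraries of its group. In bulk RNA, fewer cells of a type and less RNA per cell cannot be told apart.

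Collagen RNA was lower under KU60019 at both times. The 44 genes summed to 2749.8, 2344 and 2589 TPM (transcript abundance scaled to gene length and to the library's total) in KU60019 15 d libraries, against 17162, 8534 and 14908 TPM in DMSO 15 d libraries. All 3 KU60019 libraries were below all 3 DMSO libraries, and the mean stood at 0.189 of the DMSO mean. At 35 d the sum was 4124, 3867 and 3817 TPM with KU60019, against 12198, 18389 and 17259 TPM with DMSO, a ratio of 0.247 with no overlap. For cultures withdrawn after 15 d it was 7237, 5100.4 and 5235 TPM in cultures that had received KU60019, against 20369, 19198 and 18443 TPM in those that had received DMSO, a ratio of 0.303 with no overlap. Irradiated cultures lay between the KU60019 and DMSO groups of 15 d at 4488, 4955 and 6807 TPM, 0.40 of the DMSO mean. The groups withdrawn after 35 d overlapped, at 2433, 3425 and 2307 TPM with earlier KU60019, against 1759.7, 2870.0 and 3187 TPM with earlier DMSO. The exact 2-sided permutation test gave p = 0.10 where libraries did not overlap, the smallest value 3 against 3 libraries allow, and p = 0.90 after withdrawal at 35 d.

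Mitochondrially encoded RNA, a sign of RNA and cell state, moved with several of these groups. It took 5.08 to 6.61% of counts with KU60019 at 35 d, against 1.61 to 1.73% with DMSO, and 2.58 to 2.86% with KU60019 at 15 d and 2.37 to 2.61% in irradiated cultures, against 1.77 to 1.94% with DMSO. With earlier KU60019 it was 1.23 to 1.57% after withdrawal at 15 d, against 1.62 to 2.02% with earlier DMSO. These groups did not overlap, while those withdrawn after 35 d did, at 2.96 to 3.31% with earlier KU60019 and 1.85 to 3.77% with earlier DMSO. That overlap came from DMSO library S19_705 at 3.77%. DMSO libraries S20_715 and S21_716, at 2.06 and 1.85%, lay below all KU60019 libraries. The part of mitochondrially encoded RNA in the collagen values was not tested.

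The size of these differences depended on the scale. CPM, which is not scaled to gene length, was computed with library totals scaled by the TMM method, under which most genes keep their level between libraries. Beside gene length, TPM and CPM of a library differ by 1 factor for all genes, and as a mean log2 difference of treated minus DMSO libraries this factor was -0.23 at 15 d, -0.36 at 35 d, -0.57 and 0.48 after withdrawal at 15 d and 35 d, and -0.20 after irradiation. On the log2(TPM + 1) scale the median of all tested genes shifted by -0.18, -0.33, -0.47, 0.32 and -0.16 in the same comparisons. On the CPM scale the summed level was 0.242 of the DMSO mean with KU60019 at 15 d, 0.325 at 35 d, 0.437 after withdrawal at 15 d and 0.497 after irradiation, with no overlap in any of these. The groups withdrawn after 35 d had 9945, 11846 and 9261 CPM with earlier KU60019, against 12793, 13748 and 13673 CPM with earlier DMSO, a ratio of 0.772 with no overlap (exact p = 0.10). Values of single genes below are in CPM, the scale of the fold changes, and TPM is kept for comparing genes with each other.

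**Figure D1:**
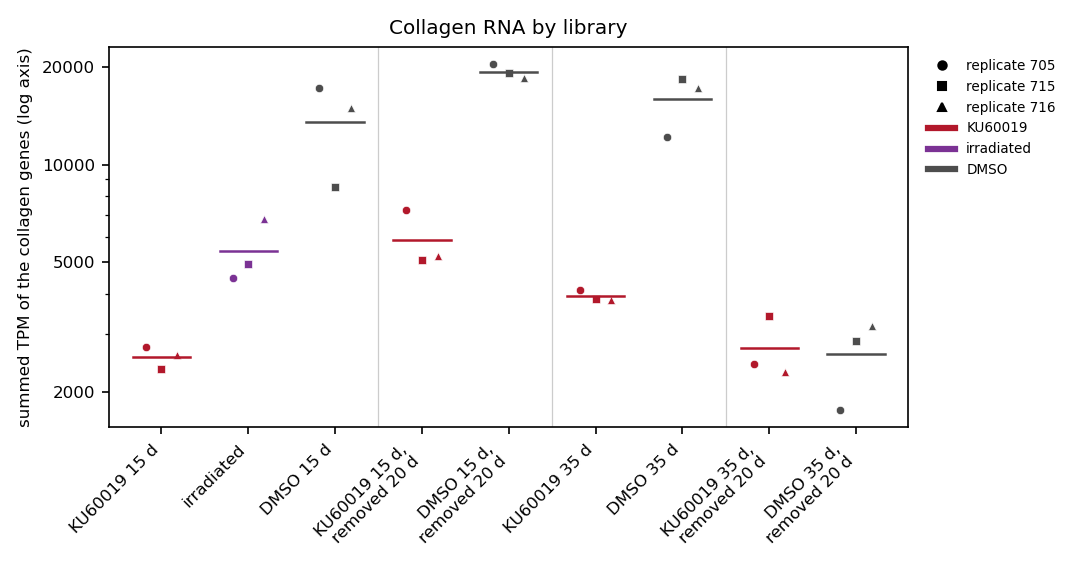
Summed TPM of the 44 collagen genes in each of the 27 libraries on a log axis, by group, with a line at the mean of 3. KU60019 libraries lie below their DMSO libraries at 15 d, at 35 d and after withdrawal at 15 d, and the withdrawn 35 d groups overlap.

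DMSO withdrawn after 35 d was the DMSO group with the least collagen RNA: its mean of 2605 ± 749 TPM compares with 15949 ± 3298 TPM in DMSO 35 d cultures (SD, n = 3 each), a ratio of 0.163 with no overlap (exact p = 0.10). KU60019 withdrawn after 35 d averaged 2722 ± 612 TPM, against 3936 ± 165 TPM in KU60019 35 d cultures, a ratio of 0.691. On the CPM scale these ratios were 0.295 in the DMSO arm and 0.701 in the KU60019 arm. As a share of all counts, collagen genes took 0.969 ± 0.0691% in KU60019 15 d libraries and 4.09 ± 0.911% in DMSO 15 d libraries.

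By the test over all genes (edgeR's quasi-likelihood test with Benjamini-Hochberg adjustment, called at an adjusted p under 0.05), 21 of the 38 tested collagen genes fell and 2 rose with KU60019 at 15 d, against backgrounds of 17.1% of all tested genes lower and 13.2% higher. At 35 d, 12 fell and 7 rose (background 8.4% lower and 9.70% higher). After withdrawal at 15 d, 12 were lower and 1 was higher in cultures with earlier KU60019 (background 24% lower and 24.7% higher). After withdrawal at 35 d the split turned, with 14 higher and 5 lower (background 24.4% higher and 24.5% lower). In irradiated cultures 11 fell and 7 rose (background 16.8% lower and 14.1% higher). The irradiated and KU60019 15 d groups share their DMSO 15 d libraries. Without DMSO 15 d library S1_705, 15 genes were called lower and 0 higher with KU60019 at 15 d. In that fit 2053 of all 19130 tested genes were lower and 1586 higher. Without the 4 libraries over 0.4% rRNA, which leaves 1 library of DMSO withdrawn after 35 d, 8 were called higher and 2 lower after withdrawal at 35 d. Other scalings changed some splits, and the split of all genes with them. After withdrawal at 35 d, 17 were higher and 3 lower with scaling by library size alone. There 6355 of all 18684 tested genes were higher and 2669 lower. Limma on log2(TPM + 1) called 14 higher and 2 lower of 31 tested, where 5952 of all 16350 were higher and 1751 lower. By limma 14 of 31 fell and 5 rose at 35 d, where 4267 of all 16350 fell and 660 rose. For withdrawal at 15 d, DESeq2 called 12 lower and 3 higher, where 4573 of all 18679 tested genes were lower and 4974 higher. Removal of each library's trend with gene length left 9 lower and 3 higher, where 3887 of all 18623 were lower and 4762 higher.

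The median log2 fold change of the 38 genes was -1.01 at 15 d, -0.43 at 35 d, -0.36 after withdrawal at 15 d, 0.48 after withdrawal at 35 d and -0.12 after irradiation, while the median over all tested genes lay between -0.0233 and -0.00365 in each. The 4 KU60019 comparisons use separate libraries. Col1a1, Col1a2, Col3a1, Col4a1, Col4a2, Col5a1 and Col5a2 were lower at 15 d, at 35 d and after withdrawal at 15 d, and 3 of these 7, Col1a1, Col1a2 and Col5a1, also after withdrawal at 35 d. At 15 d and at 35 d, 12 genes fell in both, Col22a1 and Col9a3 rose in both, and Col9a2 fell at 15 d and rose at 35 d. How many of all tested genes were called the same way in several comparisons was not counted. These overlaps therefore have no background to be read against. Col10a1, Col17a1, Col4a3, Col5a3 and Col7a1 passed the test in none of the 5 comparisons.

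Levels of the genes spanned a wide range. Over the 27 libraries, 10 genes averaged at least 100 TPM, 8 from 10 to under 100, 10 from 1 to under 10 and 16 under 1 TPM, and 12 never reached 1 TPM in any library. In DMSO 15 d cultures Col3a1 was first with 44.4% of all collagen TPM, followed by Col1a2 with 20.2%, Col1a1 with 15.1% and Col5a2 with 7.25%. Their means were 6004 ± 2303, 2735 ± 795, 2044 ± 659 and 981 ± 456 TPM (SD, n = 3). The spreads of Col1a2 and Col1a1 overlap, but within each DMSO 15 d library Col1a1 was below Col1a2, at TPM ratios of 0.658, 0.749 and 0.835. In KU60019 15 d cultures Col1a2, Col3a1, Col1a1 and Col5a2 stood close together at means of 534, 501, 448 and 407 TPM.

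Of the 11 fibrillar genes, all of which were tested, 7 fell and 0 rose with KU60019 at 15 d, 6 fell and 1 rose at 35 d, and 7 were lower and 0 higher after withdrawal at 15 d, beside 17.1%, 8.4% and 24% of all tested genes lower. Fibrillar genes after withdrawal at 35 d split evenly, as 3 were higher and 3 lower, and in irradiated cultures 4 fell and 2 rose, beside the backgrounds given above. Promoter windows of Col1a2 and Col3a1 are shown (RefSeq, GRCm38.p6, 250 bases before the start and 50 from it on). Both genes were lower at 15 d, at 35 d, after withdrawal at 15 d and after irradiation. After withdrawal at 35 d Col3a1 was called higher and Col1a2 lower, and both calls were lost with only the compared groups in the fit. Any part of the motifs in these values was not tested. Capitals mark CCAAT, the GC box GGGCGG and TATAAA on either strand, reading ATTGG and CCGCCC for the first 2 on the opposite strand. The Col1a2 window (chr6:4505368-4505667, plus strand) holds CCAAT at -109, its reverse at the start site and GC boxes at -205 and -188. The Col3a1 window (chr1:45311288-45311587, plus strand) holds TATAAA at -117 and neither other motif.
Col1a2: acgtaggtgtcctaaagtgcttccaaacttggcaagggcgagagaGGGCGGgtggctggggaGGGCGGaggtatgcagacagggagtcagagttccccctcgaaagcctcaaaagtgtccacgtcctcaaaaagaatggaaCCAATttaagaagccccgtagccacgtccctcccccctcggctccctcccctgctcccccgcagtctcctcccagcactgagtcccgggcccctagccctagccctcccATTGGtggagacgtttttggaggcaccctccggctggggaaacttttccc
Col3a1: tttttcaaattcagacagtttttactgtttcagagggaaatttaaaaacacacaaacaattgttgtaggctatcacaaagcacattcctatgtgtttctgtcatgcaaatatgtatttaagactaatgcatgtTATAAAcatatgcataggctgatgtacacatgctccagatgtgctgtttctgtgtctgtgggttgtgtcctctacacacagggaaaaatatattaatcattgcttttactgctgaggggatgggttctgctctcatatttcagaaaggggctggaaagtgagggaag

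Windows were found for 35 of the 44 genes, 38 windows in all. CCAAT was in 13 of the 38 (34.2%, against 37.4% of 32851 windows of all genes), the GC box in 23 (60.5%, against 35.7%) and TATAAA in 5 (13.2%, against 13.6%). A match describes the letters only.

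Type I collagen, the most abundant collagen of interstitial fibres, is built from the chains of Col1a1 (ENSMUSG00000001506, chromosome 11, 94936224 to 94953042, plus strand, GRCm38) and Col1a2 (ENSMUSG00000029661, chromosome 6, 4504814 to 4541544, plus strand). Col1a1 stood at 1545, 1556 and 1592 CPM in KU60019 15 d libraries, against 5757, 4860.2 and 7123 CPM in DMSO 15 d libraries (log2 fold change -1.92 ± 0.25, adjusted p = 8.17e-06). The KU60019 libraries lay close together and below every DMSO library. At 35 d Col1a1 had 1063, 1746 and 1274 CPM with KU60019, against 5952, 9107 and 6986 CPM with DMSO, its largest fall (log2 fold change -2.43 ± 0.26, adjusted p = 1.13e-06). Col1a2 had 1827, 1565 and 1654 CPM with KU60019 at 15 d, against 7889, 5855 and 7692 CPM with DMSO (log2 fold change -2.09 ± 0.17, adjusted p = 1.64e-08). It fell at 35 d too, at -1.76 ± 0.16, with no overlap between the groups.

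Both type I genes were lower in cultures withdrawn from KU60019 after 15 d. Col1a1 had 4284, 5003 and 4989 CPM there, against 14097, 12346 and 12481 CPM after DMSO (log2 fold change -1.45 ± 0.25, adjusted p = 2.26e-04). Col1a2 had 8035, 8333 and 6609 CPM with earlier KU60019, against 14668, 13069 and 13437 CPM with earlier DMSO (log2 fold change -0.84 ± 0.16, adjusted p = 4.26e-04). All KU60019 values lay below all DMSO values. In cultures withdrawn after 35 d, Col1a1 had 1243, 2018 and 1163 CPM after KU60019, against 4082, 4241 and 3929 CPM after DMSO (log2 fold change -1.47 ± 0.25, adjusted p = 4.39e-05), again with no overlap. In irradiated cultures both fell, Col1a1 at -1.03 ± 0.25 and Col1a2 at -1.19 ± 0.16, with no overlap with DMSO 15 d libraries. Col1a2 after withdrawal at 35 d lay at -0.64 ± 0.16 (adjusted p = 0.00207), a call that scaling by library size alone did not hold (-0.33, adjusted p = 0.115).

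The TPM ratio of Col1a1 to Col1a2 differed between groups. It was 0.424 ± 0.0891 with KU60019 at 35 d, against 0.676 ± 0.0788 with DMSO (SD, n = 3 each). After withdrawal at 15 d it was 0.568 ± 0.102 with earlier KU60019, against 0.852 ± 0.0145 with earlier DMSO, and after withdrawal at 35 d 0.536 ± 0.0741 with earlier KU60019, against 0.968 ± 0.0293 with earlier DMSO. The libraries did not overlap in these 3 pairs. At 15 d it was 0.843 ± 0.0704 with KU60019, 0.820 ± 0.207 in irradiated and 0.747 ± 0.0885 in DMSO cultures, with overlap.

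**Figure D2:**
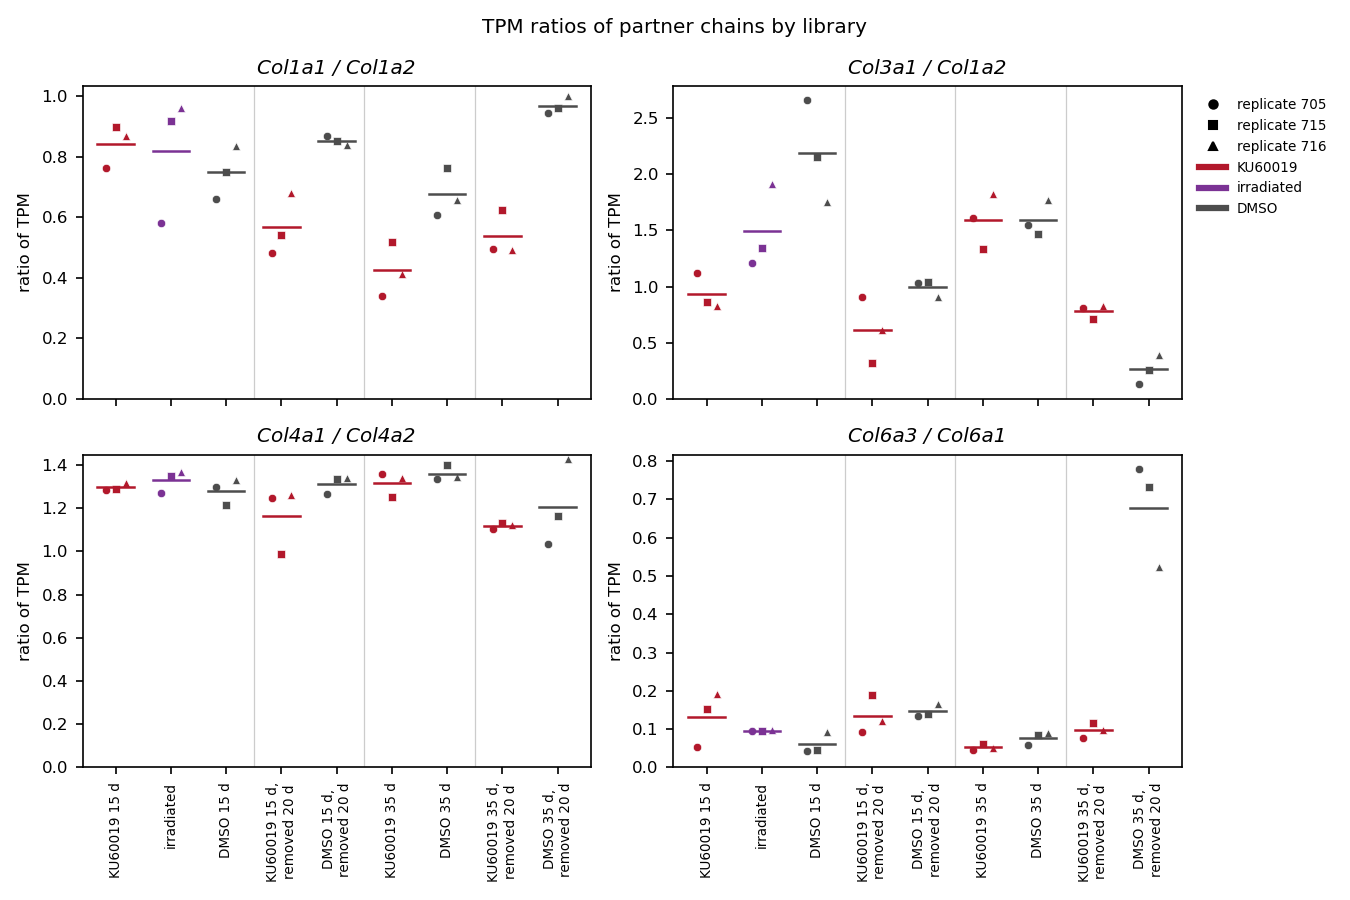
TPM ratios of 4 pairs of collagen genes in each library, by group, with a line at the mean of 3. Col1a1 over Col1a2 is lower with KU60019 at 35 d and in both withdrawn pairs, Col4a1 over Col4a2 stays between 0.990 and 1.43, and Col6a3 over Col6a1 is highest in DMSO withdrawn after 35 d.

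Type III collagen, encoded by Col3a1 (ENSMUSG00000026043, chromosome 1, 45311538 to 45349706, plus strand), forms thin fibres with type I and is abundant in distensible organs such as the lung. It had 2123, 1400.0 and 1418 CPM with KU60019 at 15 d, against 21841, 13133 and 14039.9 CPM with DMSO, the largest fall in the family in that comparison (log2 fold change -3.31 ± 0.37, adjusted p = 1.19e-06). At 35 d it had 4714, 4226 and 5269 CPM with KU60019, against 14241, 16435 and 17677 CPM with DMSO (log2 fold change -1.77 ± 0.35, adjusted p = 0.00109). A test of the difference gave a smaller fall at 35 d (1.54 ± 0.48, adjusted p = 0.0389), which did not pass without KU60019 15 d library S5_715 or S6_716 or KU60019 35 d library S16_705, S17_715 or S18_716 or DMSO 15 d library S1_705 or DMSO 35 d library S13_705, S14_715 or S15_716 (1.29 to 1.62, adjusted p = 0.0507 to 0.119). Col3a1 after withdrawal at 15 d had 7609.9, 2769.5 and 4183 CPM with earlier KU60019, against 15696, 14153 and 12691 CPM with earlier DMSO (log2 fold change -1.55 ± 0.35, adjusted p = 0.00125). Groups did not overlap in these 3 comparisons.

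After withdrawal at 35 d the order of Col3a1 was the opposite, with 1897, 2174 and 1843 CPM after KU60019, against 549, 1074 and 1433 CPM after DMSO (log2 fold change 0.95 ± 0.34, adjusted p = 0.0249). All 3 KU60019 libraries were above all DMSO libraries, whose S19_705 was lowest. Without that library the difference was 0.65 and did not pass the test (adjusted p = 0.133), nor did it without KU60019 library S23_715 (0.88, adjusted p = 0.0678). Within the DMSO arm Col3a1 was far lower after withdrawal than at 35 d (log2 fold change -3.98 ± 0.38, adjusted p = 2.10e-08), and within the KU60019 arm it was lower by less (log2 fold change -1.26 ± 0.34, adjusted p = 0.0204, the difference between the arms being 2.72 ± 0.49, adjusted p = 2.38e-04). The call within the KU60019 arm was lost without KU60019 35 d library S16_705 or S18_716 or withdrawn KU60019 library S22_705 or S24_716 (-1.27 to -1.18, adjusted p = 0.0523 to 0.0984). Irradiated cultures had 3678, 3882 and 7441 CPM, against the DMSO 15 d values above (log2 fold change -1.71 ± 0.35, adjusted p = 7.42e-04), with no overlap. The exons of Col3a1 share 141 bases with a miRNA gene on the same strand, so a part of its counts is uncertain.

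The chains of type V collagen, which start and limit fibril growth, are encoded by Col5a1, Col5a2 and Col5a3. Col5a2 had 1607, 1460.2 and 1692 CPM with KU60019 at 15 d, against 3364, 1911 and 4069.6 CPM with DMSO (log2 fold change -0.97 ± 0.25, adjusted p = 0.00583). It had 1521, 1701 and 1609.8 CPM with KU60019 at 35 d, against 3592, 4539 and 4516 CPM with DMSO (log2 fold change -1.39 ± 0.26, adjusted p = 5.98e-04), and 4175, 1891 and 2875 CPM with earlier KU60019 after withdrawal at 15 d, against 6667, 6517 and 6791 CPM with earlier DMSO (log2 fold change -1.16 ± 0.25, adjusted p = 0.0011). KU60019 libraries were below DMSO libraries each time. Col5a1 fell alongside, at -1.27 ± 0.22, -1.41 ± 0.22 and -1.08 ± 0.22 on the log2 scale in the same comparisons, and was also lower after withdrawal at 35 d (-0.85 ± 0.21), while Col5a3 passed the test in none. In irradiated cultures Col5a1 stood at -0.48 (adjusted p = 0.0941) and Col5a2 at -0.26 on the log2 scale (adjusted p = 0.463), neither past the threshold. Col3a1 and Col5a2 are neighbours on chromosome 1, tail to tail and 24614 bases apart.

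Type XI chains form the core of cartilage fibrils and join type V in other tissues. Col11a1 had 73.2, 105 and 73.7 CPM in cultures withdrawn from KU60019 after 15 d, against 162, 166 and 176 CPM after DMSO (log2 fold change -1.0 ± 0.34, adjusted p = 0.0203), and did not pass the test at 15 d (-0.57, adjusted p = 0.215). The call after withdrawal was lost without withdrawn KU60019 library S10_705 or S12_716 (-0.92 to -0.91, adjusted p = 0.0583 to 0.068). Its partner Col11a2 was instead higher in cultures withdrawn from KU60019 after 35 d, at 17.9, 16.8 and 22.3 CPM, against 4.82, 3.35 and 3.26 CPM after DMSO (log2 fold change 2.33 ± 0.18, adjusted p = 4.91e-10). It also rose in irradiated cultures (log2 fold change 1.21 ± 0.16, adjusted p = 9.90e-06), and was lower after withdrawal at 15 d (-0.56 ± 0.16), a call lost without withdrawn KU60019 library S11_715 (-0.42, adjusted p = 0.0559). Col24a1 and Col27a1, fibrillar genes with a shorter helix, fell at 15 d (-3.12 ± 0.57 and -2.14 ± 0.48), and Col24a1 also after irradiation (-2.37 ± 0.56). Col27a1 fell at 35 d as well (-1.50 ± 0.47), a call lost without KU60019 35 d library S16_705, S17_715 or S18_716 or DMSO 35 d library S14_715 or S15_716 (-1.58 to -1.35, adjusted p = 0.0705 to 0.103). Col2a1, the cartilage collagen, never reached 1 TPM, although the test called it higher with KU60019 at 35 d, after irradiation and, at 3.51 ± 0.82, after withdrawal at 35 d.

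Basement membrane genes split into an abundant and a scarce set. Col4a1 (ENSMUSG00000031502, chromosome 8, 11198423 to 11312826, minus strand) and Col4a2 (ENSMUSG00000031503, chromosome 8, 11312805 to 11449287, plus strand) encode the chains of the common type IV network and lie head to head with 22 shared bases. Their promoter windows are shown because the genes share this region and fell together at 15 d, at 35 d and after withdrawal at 15 d. The windows (Col4a1 chr8:11312777-11313076, minus strand; Col4a2 chr8:11312555-11312854, plus strand; RefSeq, GRCm38.p6) overlap by 78 bases, and capitals mark the same motifs as above. The Col4a1 window holds a reverse CCAAT at -145 and a reverse GC box at 10. The Col4a2 window holds CCAAT at -32, GC boxes at -192 and 8 and a reverse GC box at -48. The reverse GC box at 10 of Col4a1 and the GC box at 8 of Col4a2 are the same bases, read on opposite strands.
Col4a1: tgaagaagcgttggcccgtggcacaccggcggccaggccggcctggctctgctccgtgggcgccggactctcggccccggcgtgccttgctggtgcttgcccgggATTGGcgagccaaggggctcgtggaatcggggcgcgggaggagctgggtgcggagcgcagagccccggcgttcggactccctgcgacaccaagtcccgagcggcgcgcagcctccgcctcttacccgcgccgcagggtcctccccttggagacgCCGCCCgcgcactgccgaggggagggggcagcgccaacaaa
Col4a2: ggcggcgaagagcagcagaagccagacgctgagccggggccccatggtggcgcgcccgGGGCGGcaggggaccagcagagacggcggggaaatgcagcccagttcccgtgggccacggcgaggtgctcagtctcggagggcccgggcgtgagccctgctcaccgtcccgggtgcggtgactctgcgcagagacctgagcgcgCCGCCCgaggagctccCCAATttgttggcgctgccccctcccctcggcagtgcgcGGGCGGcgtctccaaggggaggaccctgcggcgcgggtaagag

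At 35 d Col4a1 had 590.0, 474 and 543 CPM with KU60019, against 1431, 1912 and 1906 CPM with DMSO (log2 fold change -1.71 ± 0.21, adjusted p = 6.64e-06), and Col4a2 had 424, 370.2 and 396 CPM with KU60019, against 1045, 1333 and 1384 CPM with DMSO (log2 fold change -1.66 ± 0.19, adjusted p = 2.78e-06). The groups were far apart for both. Col4a1 after withdrawal at 15 d had 833, 557 and 709 CPM with earlier KU60019, against 2686, 2368 and 2374 CPM with earlier DMSO (log2 fold change -1.82 ± 0.21, adjusted p = 8.04e-06), and Col4a2 moved with it (-1.66 ± 0.19). At 15 d the groups overlapped: Col4a1 had 731, 621 and 686 CPM with KU60019, against 1224, 637 and 1317 CPM with DMSO (log2 fold change -0.64 ± 0.20, adjusted p = 0.0198), with DMSO library S2_715 between the KU60019 libraries. That call was lost without KU60019 15 d library S5_715 or S6_716 or DMSO 15 d library S1_705 or S3_716 (-0.64 to -0.45, adjusted p = 0.0558 to 0.133), and the call of Col4a2 (-0.64 ± 0.18) without KU60019 15 d library S5_715 or DMSO 15 d library S1_705 or S3_716 (-0.58 to -0.49, adjusted p = 0.0562 to 0.0762). The effect of KU60019 on Col4a1 was larger at 35 d than at 15 d when the difference was tested (-1.07 ± 0.29, adjusted p = 0.0165).

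Irradiated cultures had 1159, 1116 and 1272 CPM of Col4a1, inside the DMSO 15 d range, and Col4a2 likewise did not pass the test (0.16 and 0.12). The ratio of Col4a1 to Col4a2 lay between 0.990 and 1.43 in all 27 libraries. Col4a5, a chain of a restricted type IV network, had 24.4, 17.4 and 20.2 CPM with KU60019 at 15 d, against 111, 30.3 and 76.9 CPM with DMSO (log2 fold change -1.82 ± 0.44, adjusted p = 0.00333). Its DMSO library S2_715 was the nearest to the KU60019 values. It was also lower after withdrawal at 15 d (-1.70 ± 0.44). It was higher after withdrawal at 35 d, at 35.0, 47.1 and 29.8 CPM with earlier KU60019, against 12.2, 18.3 and 14.9 CPM with earlier DMSO (log2 fold change 1.30 ± 0.44, adjusted p = 0.0187), a call lost without withdrawn KU60019 library S23_715 or withdrawn DMSO library S19_705 (1.10 to 1.16, adjusted p = 0.0689 to 0.0692). Col4a6 fell at 15 d (-1.73 ± 0.39), and Col4a3 and Col4a4 stayed under 1 TPM in every library. Col4a4 was nevertheless called higher with KU60019 at 35 d, a call lost in at least 1 fit with a library left out.

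At 15 d type IV genes took a larger share of collagen RNA with KU60019 and after irradiation. The basement membrane class made up 12.3 ± 0.272% of collagen TPM in KU60019 15 d cultures, 10.6 ± 1.88% in irradiated and 4.42 ± 0.941% in DMSO 15 d cultures (SD, n = 3 each). The fibrillar share was 77.1 ± 0.636% with KU60019, 78.2 ± 4.11% in irradiated and 88.9 ± 1.16% in DMSO 15 d cultures. All 6 treated libraries lay above the DMSO libraries in the basement membrane share and below them in the fibrillar share. At 35 d the basement membrane share was 6.15 ± 0.523% with KU60019 and 6.09 ± 0.321% with DMSO, a difference within the spread, while the fibrillar share was 76.7 ± 3.63% with KU60019 and 85.9 ± 0.603% with DMSO, with no overlap. After withdrawal at 15 d the order of the basement membrane share was the opposite of that at 15 d, at 4.65 ± 0.405% with earlier KU60019 and 6.93 ± 0.149% with earlier DMSO, again with no overlap.

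**Figure D3:**
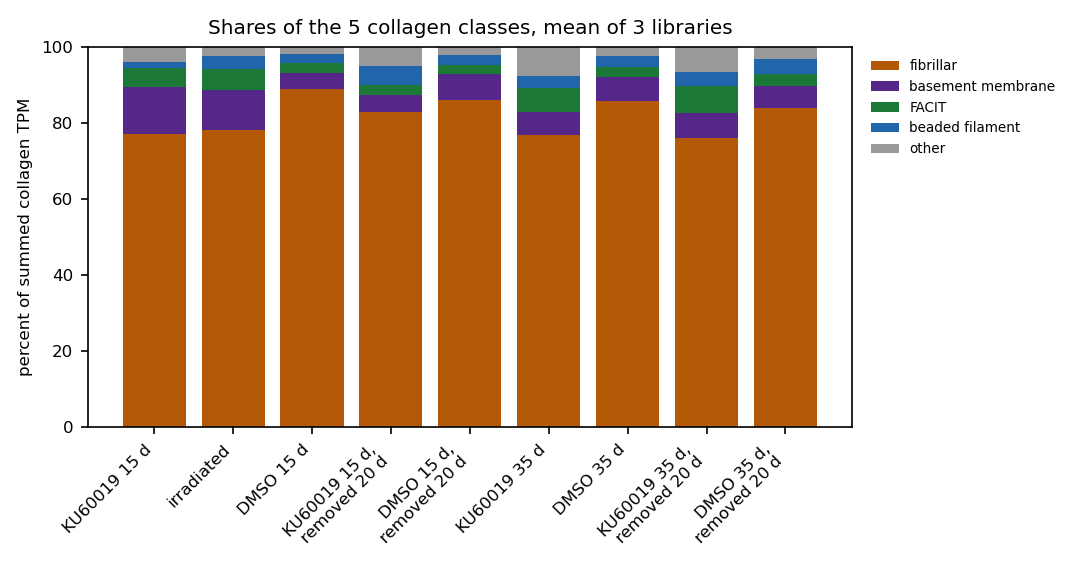
Mean share of each class in summed collagen TPM (percent, 3 libraries a group), stacked from fibrillar at the bottom to other at the top. The fibrillar share is 77.1% with KU60019 at 15 d, 78.2% in irradiated and 88.9% in DMSO 15 d cultures.

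All 4 tested beaded filament genes fell with KU60019 at 15 d (background 17.1%), with a median log2 fold change of -2.26. Col6a1 and Col6a2 encode the short chains of type VI collagen, which links cells to the surrounding matrix, and Col6a3 its long chain. Col6a1 had 80.4, 52.3 and 54.5 CPM with KU60019, against 644, 395 and 419 CPM with DMSO (log2 fold change -2.96 ± 0.25, adjusted p = 4.06e-08). Col6a2 had 45.1, 29.9 and 30.7 CPM with KU60019, against 263, 198 and 195 CPM with DMSO (log2 fold change -2.63 ± 0.27, adjusted p = 4.86e-07), and Col6a3 had 10.8, 19.6 and 25.6 CPM with KU60019, against 68.4, 43.6 and 95.7 CPM with DMSO (log2 fold change -1.89 ± 0.37, adjusted p = 6.24e-04). No KU60019 library reached the lowest DMSO library for any of these 3 genes. At 35 d all 3 fell again, at -1.32 ± 0.24, -1.59 ± 0.26 and -1.92 ± 0.37, and the effect on Col6a1 was smaller than at 15 d (difference 1.64 ± 0.33, adjusted p = 0.00212). In irradiated cultures 2 of the 4 tested genes fell and 0 rose (background 16.8% lower), with a median of -0.639. Col6a1 was among those lower, a call lost in at least 1 fit with a library left out.

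After withdrawal at 15 d no beaded filament gene passed the test. Col6a1 had 429, 719 and 464 CPM with earlier KU60019, against 773, 702 and 702 CPM with earlier DMSO (-0.43, adjusted p = 0.126), and Col6a3 had 96.8, 336 and 140.0 CPM with earlier KU60019, against 254, 244 and 288 CPM with earlier DMSO (-0.46, adjusted p = 0.302). KU60019 library S11_715, the one with chondrocyte markers, was the highest of its group for both. Without it Col6a1, Col6a2 and Col6a3 were called lower, at -0.70, -0.61 and -1.15. On the TPM scale these 3 genes were called lower by limma with all libraries (-1.03, -0.76 and -1.18 on the log2(TPM + 1) scale, adjusted p = 0.00446, 0.0208 and 0.0118), beside the median shift of all genes given above. Relative to KU60019 at 15 d, withdrawn cultures had higher Col6a1, Col6a2 and Col6a3, by 3.11 ± 0.25, 3.17 ± 0.28 and 3.35 ± 0.40, with no overlap.

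Col6a3 departed from Col6a1 in DMSO cultures withdrawn after 35 d. It had 35.7, 51.2 and 38.4 CPM after KU60019, against 253, 245 and 257 CPM after DMSO (log2 fold change -2.59 ± 0.38, adjusted p = 8.62e-06), whereas Col6a1 had 189, 178 and 159 CPM with earlier KU60019, against 132, 136 and 199 CPM with earlier DMSO (0.17, adjusted p = 0.565). The Col6a3 to Col6a1 ratio was 0.779, 0.732 and 0.523 in the DMSO libraries, and at most 0.191 in the other 24 libraries. Relative to DMSO at 35 d, withdrawal of DMSO came with lower Col6a1 (-2.00 ± 0.24) and higher Col6a3 (1.05 ± 0.36). The call of Col6a3 was lost without DMSO 35 d library S13_705 (0.81, adjusted p = 0.0807). Col6a4 stayed under 1 TPM, with 173 counts over all libraries, so its calls rest on few reads.

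FACIT genes divided between falls and rises. Col14a1 and Col12a1, which bind the surface of type I fibrils, are the most abundant with Col16a1. Col14a1 had 104, 44.8 and 60.0 CPM with KU60019 at 15 d and 150, 50 and 58.7 CPM in irradiated cultures, against 551, 216 and 309 CPM in DMSO 15 d cultures (log2 fold change -2.37 ± 0.43, adjusted p = 2.79e-04 for KU60019 and log2 fold change -2.06 ± 0.43, adjusted p = 8.78e-04 for irradiation). All 6 treated libraries lay below the DMSO libraries. In cultures withdrawn after 35 d it had 96.8, 59.6 and 49.6 CPM with earlier KU60019, against 5.38, 4.02 and 3.84 CPM with earlier DMSO (log2 fold change 3.97 ± 0.48, adjusted p = 5.81e-07). The DMSO values were the lowest of all groups, and withdrawal of DMSO after 35 d came with a log2 fold change of -6.07 ± 0.52, the largest of the family in that comparison. Col14a1 was lower after withdrawal at 15 d with earlier KU60019 (-1.24 ± 0.42), a call lost without withdrawn KU60019 library S11_715 or S12_716 or withdrawn DMSO library S7_705 (-1.21 to -0.91, adjusted p = 0.0516 to 0.105).

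Col12a1 showed another order. Irradiated cultures had 1275, 1309.8 and 1373 CPM, against 852, 285 and 664 CPM in DMSO 15 d cultures (log2 fold change 1.14 ± 0.29, adjusted p = 0.0055), all above the DMSO range. KU60019 at 15 d gave 547, 404 and 432 CPM, inside the DMSO range (-0.38, adjusted p = 0.344), and passed the test without DMSO library S2_715 (-0.71, adjusted p = 0.0308). After withdrawal at 15 d it had 415, 341 and 209 CPM with earlier KU60019, against 1528, 1253 and 1151 CPM with earlier DMSO (log2 fold change -2.03 ± 0.30, adjusted p = 9.45e-05), the largest fall of that comparison. It was higher after withdrawal at 35 d, at 959, 811 and 704 CPM with earlier KU60019, against 269, 318 and 442 CPM with earlier DMSO (log2 fold change 1.27 ± 0.30, adjusted p = 0.00124). Col16a1, a FACIT of fibrils and microfibrils, fell at 15 d, at 35 d and after irradiation (-1.08 ± 0.14, -1.09 ± 0.14 and -0.77 ± 0.14). Col16a1 was lower after withdrawal at 35 d, at -0.42 ± 0.14 on the CPM scale, lost without withdrawn KU60019 library S23_715 (-0.36, adjusted p = 0.0744), and stood at 0.0496 (adjusted p = 0.845) by limma on log2(TPM + 1), so its direction there depends on the scale.

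Among the scarce FACIT genes, Col22a1, a collagen of tissue junctions, had 4.17, 5.49 and 4.77 CPM with KU60019 at 35 d, against 0.335, 0.0943 and 0.0763 CPM with DMSO (log2 fold change 4.95 ± 0.44, adjusted p = 1.61e-07). In cultures withdrawn after 35 d it had 9.38, 6.63 and 7.08 CPM with earlier KU60019, against 0, 0.132 and 0.155 CPM with earlier DMSO (log2 fold change 6.09 ± 0.50, adjusted p = 1.71e-09). Counts in the DMSO libraries were 9, 3 and 4 at 35 d and 0, 3 and 4 after withdrawal, so these folds rest on few reads. It also rose with KU60019 at 15 d (1.33 ± 0.39) and after irradiation (2.85 ± 0.38), and the increase was larger at 35 d than at 15 d (difference 3.62 ± 0.59, adjusted p = 3.78e-04). The call at 15 d was lost without KU60019 15 d library S4_705 or DMSO 15 d library S1_705 (1.11 to 1.15, adjusted p = 0.0584 to 0.0694). In cultures withdrawn after 15 d Col22a1 had 0.718, 0.246 and 0.467 CPM with earlier KU60019, against 0.378, 0.214 and 0.270 CPM with earlier DMSO, and did not pass the test (0.76, adjusted p = 0.161).

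Col20a1, a FACIT known from chicken embryonic tissues, had 22, 17.7 and 24.8 CPM in cultures withdrawn from KU60019 after 35 d, against 1.75, 1.46 and 1.08 CPM after DMSO (log2 fold change 3.93 ± 0.21, adjusted p = 2.58e-12). These were its highest and lowest groups. It also rose at 35 d (1.11 ± 0.18) and after irradiation (1.30 ± 0.19). The type IX chains Col9a2 and Col9a3, which coat cartilage fibrils, were scarce. Col9a3 rose with KU60019 at 15 d, at 35 d and after irradiation (0.75 ± 0.26, 1.05 ± 0.25 and 1.88 ± 0.26). The call at 15 d was lost without KU60019 15 d library S4_705 or S5_715 or DMSO 15 d library S1_705 or S3_716 (0.66 to 0.79, adjusted p = 0.0692 to 0.117). Col9a2 had 0.313, 0.134 and 0.152 CPM with KU60019 at 15 d, against 1.31, 0.932 and 0.763 CPM with DMSO, and 4.26, 3.07 and 4.07 CPM with KU60019 at 35 d, against 0.634, 0.534 and 0.915 CPM with DMSO. It fell in the first (-2.34 ± 0.42) and rose in the second (2.42 ± 0.37), and the difference between them passed the test (4.76 ± 0.55, adjusted p = 1.61e-05). Both type IX genes were higher after withdrawal at 35 d with earlier KU60019, Col9a2 by 4.54 ± 0.50 and Col9a3 by 2.95 ± 0.28.

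**Figure D4:**
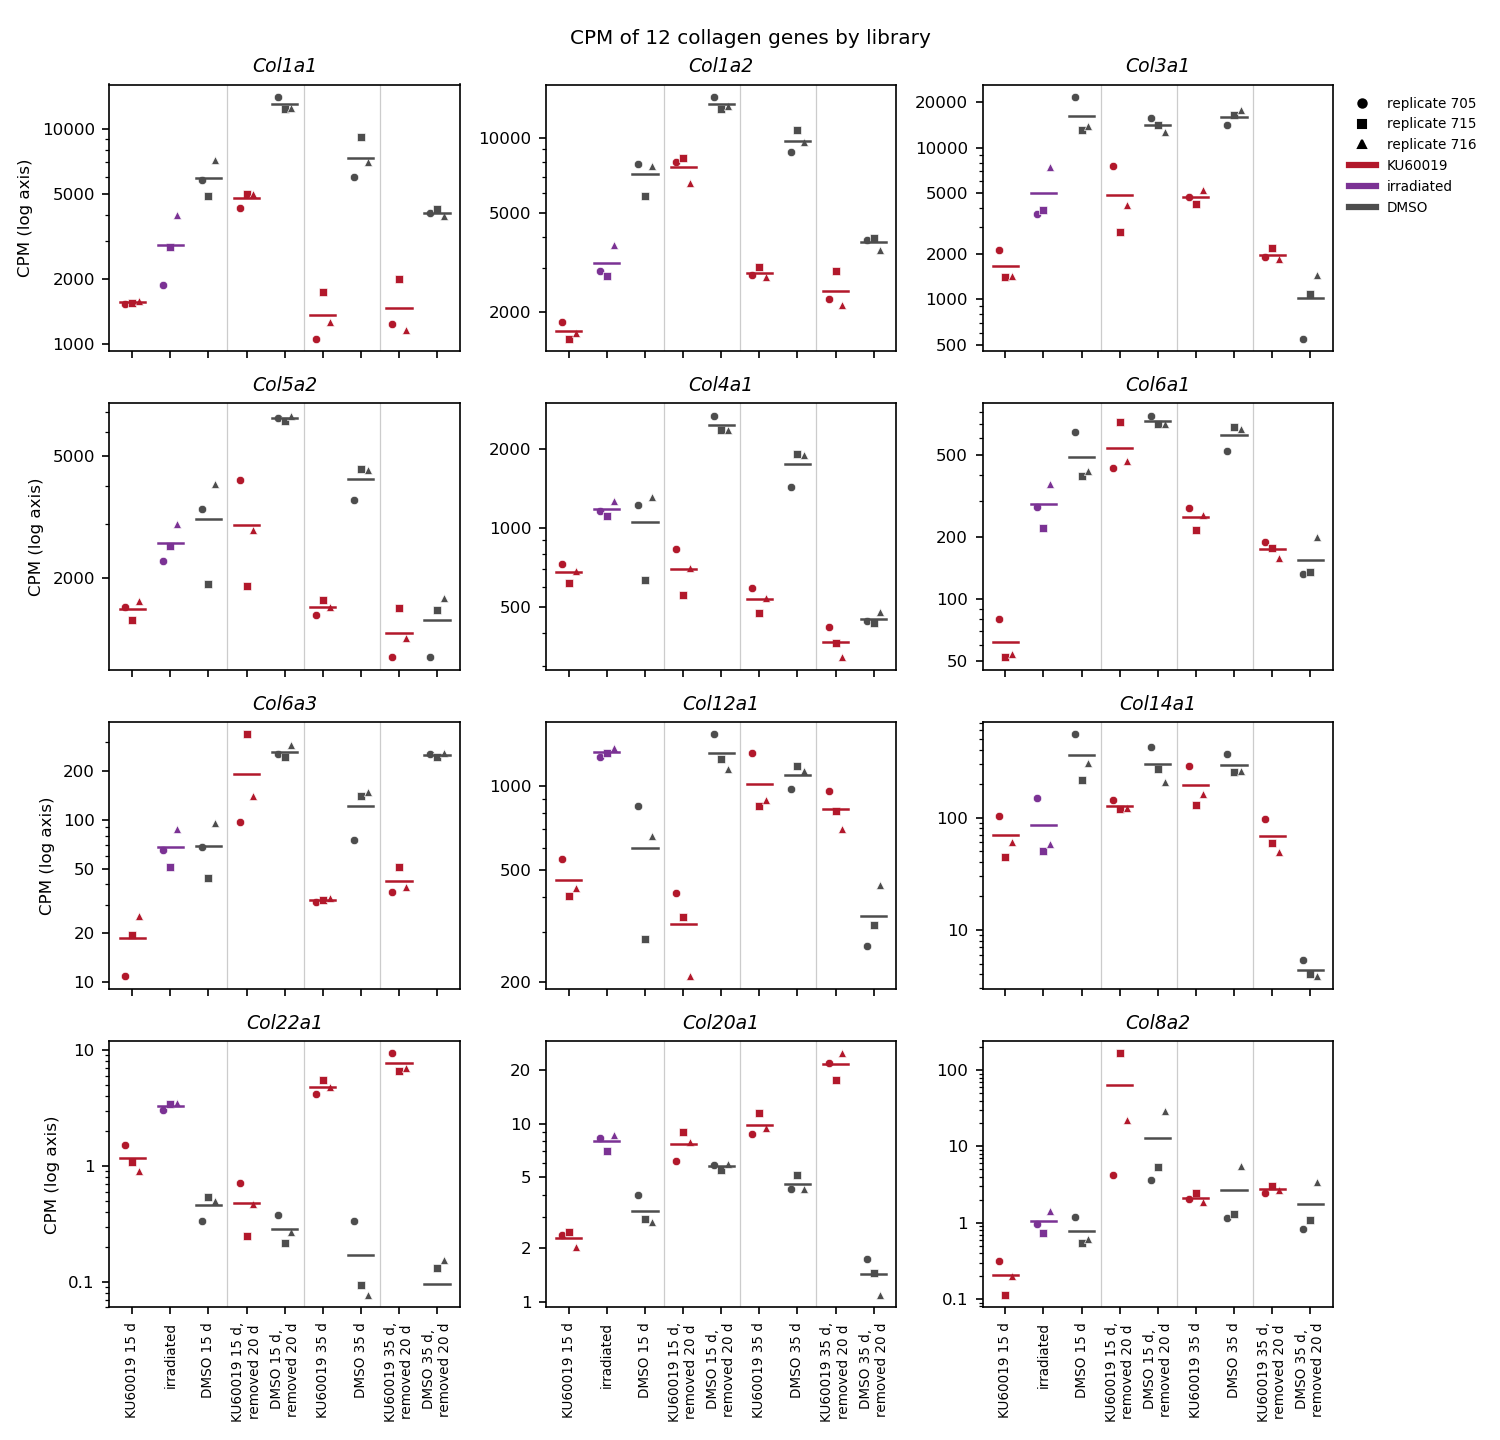
CPM of 12 collagen genes in each library on log axes, by group, with a line at the mean of 3. Col22a1 in library S19_705 of DMSO withdrawn after 35 d is at 0 and not drawn. Col1a1, Col1a2 and Col5a2 lie lower with KU60019 at 15 d, at 35 d and after withdrawal at 15 d, and Col14a1 is lowest in DMSO withdrawn after 35 d.

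Among the other genes, Col8a1 and Col8a2 encode the short chains of type VIII collagen, a network collagen of vessel walls and basement membranes. Col8a1 had 237, 155 and 176 CPM with KU60019 at 15 d, against 551, 245 and 382 CPM with DMSO (log2 fold change -1.05 ± 0.33, adjusted p = 0.0181), with no overlap but a narrow gap to DMSO library S2_715. The call was lost without KU60019 15 d library S5_715 or S6_716 or DMSO 15 d library S1_705 (-1.0 to -0.73, adjusted p = 0.0646 to 0.143). In irradiated cultures it was lower too (-1.09 ± 0.33), with overlap, a call lost without irradiated library S26_715 or S27_716 or DMSO 15 d library S1_705 (-0.93 to -0.76, adjusted p = 0.07 to 0.115). Col8a2 varied among libraries of 1 group: it had 4.28, 166 and 21.9 CPM in cultures withdrawn from KU60019 after 15 d, against 3.62, 5.39 and 29.6 CPM after DMSO (log2 fold change 2.31 ± 0.86, adjusted p = 0.0317), with overlap. Without KU60019 library S11_715 the difference was 0.01 (adjusted p = 0.993), so the call rested on that library. It was also lost without withdrawn DMSO library S7_705 or S8_715 (1.87 and 1.95, adjusted p = 0.120 and 0.117).

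Col28a1, a collagen related in domain order to type VI, had 22.6, 10.3 and 15.9 CPM with KU60019 at 15 d, against 133, 27.3 and 52.4 CPM with DMSO (log2 fold change -2.12 ± 0.59, adjusted p = 0.00883), a call lost without KU60019 15 d library S5_715 or DMSO 15 d library S1_705 (-1.87 to -1.30, adjusted p = 0.0542 to 0.118). At 35 d it had 376, 194 and 196 CPM with KU60019, against 112, 90.4 and 138 CPM with DMSO (1.17, adjusted p = 0.158), and all KU60019 libraries were above the DMSO libraries. The effects at the 2 times differed (3.29 ± 0.82, adjusted p = 0.00991), a call lost without DMSO 15 d library S1_705 (2.48, adjusted p = 0.0502). In irradiated cultures Col28a1 fell (-2.15 ± 0.59), with overlap, a call lost without irradiated library S26_715 or DMSO 15 d library S1_705 (-1.88 to -1.33, adjusted p = 0.0504 to 0.103). It was higher after withdrawal at 35 d with earlier KU60019 (2.80 ± 0.61). The transmembrane collagen Col13a1 rose at 35 d and after irradiation (1.94 ± 0.41 and 2.27 ± 0.38). In cultures withdrawn after 35 d it had 170 counts in all with earlier KU60019, against 1 count with earlier DMSO, a ratio of 146 after scaling to the library totals, with an exact 95% interval of 25.9 to 5799 for counting error only.

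Col18a1, a basement membrane collagen whose end is the source of endostatin, did not pass the test at 15 d (-0.29) or 35 d (0.60). After withdrawal at 35 d it had 84.4, 72.7 and 102 CPM with earlier KU60019, against 32.9, 23.2 and 31.2 CPM with earlier DMSO (log2 fold change 1.57 ± 0.30, adjusted p = 1.83e-04), with no overlap. Col15a1, its relative near basement membranes, fell at 15 d (-1.59 ± 0.53), a call lost without KU60019 15 d library S4_705, S5_715 or S6_716 or DMSO 15 d library S1_705 or S3_716 (-1.72 to -1.36, adjusted p = 0.0525 to 0.104). Col23a1, a transmembrane collagen, was lower in irradiated cultures (-1.52 ± 0.34) and higher with earlier KU60019 after withdrawal at 35 d (1.62 ± 0.36). Col7a1, of the anchoring fibrils under epithelia, stayed between 2.67 and 9.77 TPM in all 27 libraries and passed the test nowhere, although limma on log2(TPM + 1) called it lower after withdrawal at 15 d (-1.03, adjusted p = 0.00115), as did edgeR scaled by library size alone (-0.72, adjusted p = 0.0344).

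Set directly against KU60019 at 15 d, irradiated cultures had more collagen RNA. Of 38 tested genes, 20 were higher and 0 lower (background 12.5% higher and 11.1% lower), with a median log2 fold change of 0.84 against 0.00827 over all genes. The higher genes were 8 fibrillar, 2 basement membrane, 5 FACIT, 3 beaded filament and 2 other. Col6a1 had 278, 221 and 363 CPM in irradiated cultures, against 80.4, 52.3 and 54.5 CPM with KU60019 (log2 fold change 2.20 ± 0.24, adjusted p = 1.05e-06), and Col12a1 had the values given above (log2 fold change 1.52 ± 0.30, adjusted p = 6.85e-04). Neither pair overlapped. Calls of Col1a1, Col5a1, Col5a2, Col15a1 and Col27a1 were lost with 1 library left out: Col1a1 and Col5a1 without irradiated library S27_716 (0.59 and 0.63). Irradiated cultures differ from KU60019 cultures also in time, 10 d after X-rays against 15 d of inhibitor.

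The difference of KU60019 effects between 35 d and 15 d passed the test for 11 genes, 9 with a higher and 2 with a lower value at 35 d (background 7.11% and 4.58%), the 2 being Col4a1 and Col4a2. Between the comparisons after and before withdrawal at 15 d, 12 differences were positive and 3 negative (background 14% and 11.4%). The 3 were Col4a1, Col4a2 and Col12a1. Between those of 35 d, 19 were positive and 0 negative (background 15.8% and 16.6%). The arms behind these differences were examined after the values had been seen.

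In the DMSO arm, withdrawal after 35 d came with 25 lower and 2 higher collagen genes relative to DMSO 35 d (background 32.6% lower and 31.5% higher), with a median of -1.28. In the KU60019 arm 2 were lower and 2 higher (background 6.82% and 5.77%), and 0 lower and 2 higher by edgeR without KU60019 35 d library S16_705 or withdrawn KU60019 library S24_716. Markers moved too in the DMSO arm after 35 d. Of 8 fibroblast markers 6 were lower and 2 higher (median -1.59), with sums of 5437 to 9454 CPM in withdrawn cultures, against 13999 to 17551 CPM at 35 d. The 4 proliferation markers were all higher, and of 6 pericyte and smooth muscle markers 3 were higher and 2 lower, with sums of 5789.6 to 11664 CPM in withdrawn cultures, against 2363 to 2972 CPM at 35 d. Their part in the collagen values was not tested.

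Withdrawal after 15 d went the other way in both arms: 14 were higher and 2 lower in the DMSO arm (background 3.78% and 3.24%; 7 and 2 without DMSO 15 d library S2_715), and 21 were higher and 2 lower in the KU60019 arm (background 21.3% and 19%). In that KU60019 arm Col1a2 was higher by 2.19 ± 0.17, Col1a1 by 1.60 ± 0.25 and Col3a1 by 1.56 ± 0.35. Between DMSO for 35 d and DMSO for 15 d only Col11a2 was higher (log2 fold change 0.68 ± 0.16, adjusted p = 0.032) and only Col23a1 lower (log2 fold change -1.73 ± 0.34, adjusted p = 0.00667), 1 of 38 each way (background 0.455% and 1.11%). The call of Col23a1 was lost without DMSO 35 d library S13_705 (-1.52, adjusted p = 0.066), and that of Col11a2 without DMSO 15 d library S1_705, S2_715 or S3_716 or DMSO 35 d library S13_705, S14_715 or S15_716 (0.62 to 0.73, adjusted p = 0.0597 to 0.151).

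Some single calls ended under other settings. Without the 4 libraries over 0.4% rRNA, calls after withdrawal at 35 d were lost for 9 genes, with log2 fold changes of 0.50 for Col3a1, 0.93 for Col12a1, 0.77 for Col23a1, 1.36 for Col4a5, 2.15 for Col28a1, 3.04 for Col2a1, -0.50 for Col1a2, -0.53 for Col5a1 and -0.42 for Col16a1 (adjusted p = 0.0619 to 0.402). With only the compared groups in the fit, calls of Col4a1 and Col4a2 at 15 d were lost (-0.65 and -0.66, adjusted p = 0.110 and 0.0836), as were those of Col12a1, Col6a1, Col8a1 and Col28a1 after irradiation (adjusted p = 0.0536 to 0.106) and those of Col3a1, Col1a2 and Col16a1 after withdrawal at 35 d (adjusted p = 0.0623 to 0.102). By limma on log2(TPM + 1), Col22a1, Col9a3 and Col4a6 were not called at 15 d (0.15, 0.29 and -0.59, adjusted p = 0.0501 to 0.250), nor were Col5a1 and Col1a2 after withdrawal at 35 d (-0.35 and -0.18, adjusted p = 0.264 and 0.535). Col11a1, not called at 35 d by edgeR, was called lower there by limma (-1.19, adjusted p = 0.0268) and DESeq2 (-0.90, adjusted p = 0.046). Removal of the trend with gene length ended the calls of Col27a1 at 35 d (-1.25, adjusted p = 0.0768) and of Col11a1, Col11a2 and Col14a1 after withdrawal at 15 d (-0.67, -0.32 and -0.98, adjusted p = 0.0532 to 0.118).

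Other cell types and the growth state moved with these results. At 15 d, endothelial markers fell in 6 of 7 genes with KU60019 and in 7 of 7 in irradiated cultures, with sums of 4.06 to 5.16 CPM with KU60019 and 2.84 to 6.97 CPM in irradiated cultures, against 19.9 to 82.0 CPM with DMSO. Macrophage and leukocyte markers fell in 4 of 5 tested genes with KU60019, with sums of 15.5 to 25.3 CPM, against 29.9 to 62.6 CPM with DMSO. Proliferation markers fell in 4 of 4 genes after irradiation, to sums of 17.3 to 23.2 CPM, against 96.2 to 148 CPM with DMSO. Of 6 pericyte and smooth muscle markers, 2 rose and 1 fell with KU60019 and 3 rose after irradiation, with sums of 4124 to 5439 CPM with KU60019 and 6861 to 8316 CPM in irradiated cultures, against 1701 to 2595 CPM with DMSO. Fibroblast markers, which were 8 genes with none at 0, summed to 7968 to 9608 CPM with KU60019, against 11238 to 16701 CPM with DMSO, and 2 fell and 1 rose.

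At 35 d, Schwann cell markers rose in 5 of 6 tested genes, with sums of 12.2 to 110.4 CPM with KU60019, against 3.39 to 5.42 CPM with DMSO, and 3 fibroblast markers fell and 2 rose. After withdrawal at 15 d, 5 of 8 fibroblast markers were lower, with sums of 7608 to 11429 CPM with earlier KU60019, against 17057 to 19026 CPM with earlier DMSO, and 4 of 6 Schwann cell markers were higher. After withdrawal at 35 d, proliferation markers fell in 4 of 4 genes with earlier KU60019, summing to 32.3 to 39.6 CPM, against 852 to 1067 CPM with earlier DMSO. All 6 pericyte and smooth muscle markers passed the test there, 4 lower and 2 higher, with sums of 1375 to 1989 CPM with earlier KU60019, against 5789.6 to 11664 CPM with earlier DMSO. Schwann cell markers were higher in 5 of 6 tested genes, with sums of 9.84 to 38.9 CPM with earlier KU60019, against 11.3 to 20.5 CPM with earlier DMSO, which overlap. Macrophage and leukocyte markers, lower with KU60019 at 15 d, summed to 42.9 to 63.3 CPM with KU60019 at 35 d, against 15.9 to 26.4 CPM with DMSO. After withdrawal at 35 d they summed to 47.7 to 69.8 CPM with earlier KU60019, against 7.82 to 9.36 CPM with earlier DMSO. In each, 1 of 5 tested genes was called higher and 0 lower. The part of these markers in the collagen values was not tested.

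Genes that fold, process, cross-link or bind collagen were read from 4 lists of 45 genes, of which 42 were tested. Receptors and uptake genes make up 10 of the 45. With KU60019, 17 fell and 1 rose at 15 d (40.5% lower and 2.38% higher, background 17.1% and 13.2%). At 35 d 12 fell and 5 rose (28.6% lower and 11.9% higher, background 8.4% and 9.70%), and after withdrawal at 15 d 16 were lower and 4 higher (38.1% lower and 9.52% higher, background 24% and 24.7%). The split after withdrawal at 35 d was 10 lower and 13 higher (23.8% lower and 31.0% higher, background 24.5% and 24.4%), near the background. In irradiated cultures 13 fell and 8 rose (31.0% lower and 19% higher, background 16.8% and 14.1%). Serpinh1, the collagen-specific chaperone of the endoplasmic reticulum, fell at 15 d (-0.70 ± 0.14) and 35 d (-1.04 ± 0.14), and Plod1, a lysyl hydroxylase, fell (-0.61 ± 0.14 and -0.99 ± 0.14). Adamts2 and Adamts3, which remove the amino-terminal propeptide, fell at 15 d (-1.40 ± 0.17 and -4.73 ± 0.53), and Bmp1, which removes the carboxy-terminal propeptide, fell too (-0.51 ± 0.12). Loxl4, a cross-linking oxidase, fell at 15 d and 35 d (-1.02 ± 0.29 and -1.01 ± 0.29), whereas Lox rose at 35 d (0.73 ± 0.23). The collagen receptors Itga1, Ddr1 and Ddr2 fell at 15 d, at -1.71 ± 0.17, -0.87 ± 0.19 and -0.98 ± 0.16.

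DMSO 15 d libraries S1_705 and S3_716 had levels that rose with gene length relative to the other libraries (rank correlation across genes 0.404 and 0.413), and S2_715 did not (-0.172). DMSO libraries withdrawn after 15 d (0.337 to 0.384) and DMSO 35 d libraries S14_715 and S15_716 (0.416 and 0.394) showed the same, against -0.269 to -0.0692 in KU60019 libraries withdrawn after 15 d and -0.204 to 0.0885 in KU60019 35 d libraries. After removal of this length trend from each library, 21 collagen genes fell and 2 rose with KU60019 at 15 d, as in the fit without it. Exons of 13 collagen genes overlap another gene of the table, by at most 563 bases, and the sources used here do not say whether counting used the strand.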

How the data were processed

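Total RNA of 27 primary mouse lung fibroblast cultures was sequenced, 3 libraries in each of 9 groups. The deposited count table holds whole-number read counts per gene, for which the submitters' processing notes list featureCounts and mm10 (the sources used here give neither strand nor aligner), with 20659745 to 50859493 counts per library over 48440 genes. The deposited TPM table holds the authors' values scaled to gene length and library total, and the sources used here do not give the lengths. A second TPM table of 15372 expressed genes holds the same values and was not used. Symbols and positions come from GENCODE M21, which held 48058 of the gene IDs.

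Groups were taken from the sample titles. Counts were fitted in 1 group-means model of all 27 libraries with edgeR 4.0.16 (R 4.3.3; TMM, filterByExpr with a minimum count of 10, robust quasi-likelihood F-test), and p-values were adjusted by Benjamini-Hochberg over all genes tested, with a threshold of 0.05. Errors of log2 fold changes are standard errors of that fit. Summed TPM was compared by exact 2-sided permutation tests. Intervals cover counting error only. Alternatives were RLE and library-size scaling, no filter, DESeq2 1.42.0, limma 3.58.1 on log2(TPM + 1) for genes with at least 1 TPM in 3 libraries, only the compared groups, a replicate block, removal of a trend with gene length, 4 libraries over 0.4% rRNA left out, and each library left out in turn. Scripts were tested on simulated counts. Tables and plots were made with Python 3.11.15, pandas 2.3.3, numpy 2.4.6 and matplotlib 3.10.9.

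The text names a panel of 20 members, every further called member whose higher group averaged 1 CPM or more, and pathway genes with the lowest p of their list. The other named genes (members under that level, and pathway genes outside it) were chosen after their values were seen. The members and lists were chosen with earlier results of these data known. The 4 comparisons within an arm were added after the values had been seen. They set a withdrawn culture against the culture before withdrawal, which is 20 d younger.

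Replicate numbers were checked for pairing by correlating same-numbered libraries' deviations from their group means. Only KU60019 15 d and DMSO 15 d passed, with r of 0.393, 0.219 and 0.380 for the libraries ending in _705, _715 and _716. No libraries of a group agreed within sampling noise: the lowest chi-square per gene was 7.18.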

Additional observations from a re-analysis of the deposited data

Results flagged for a closer look

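The results here are differences between 2 effects of KU60019 on the same gene, each tested by an interaction term in edgeR's quasi-likelihood fit of all 27 libraries and passing an adjusted p of 0.05. Values are log2 differences of fold changes. Groups hold 3 libraries, too few for a formal outlier test of single values, and the effect of each library was read from fits without it.

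For 35 d minus 15 d of continued treatment, the difference was 1.54 for Col3a1, 1.60 for Col20a1, 2.61 for Col24a1, 4.76 for Col9a2, 3.30 for Col28a1, 3.28 for Col6a4, 2.48 for Col13a1, 1.64 for Col6a1 and 3.62 for Col22a1. It was -1.07 for Col4a1 and -1.02 for Col4a2, the 2 genes whose effect was more negative at 35 d. Col3a1 lost its call without KU60019 15 d library S5_715 or S6_716 or KU60019 35 d library S16_705, S17_715 or S18_716 or DMSO 15 d library S1_705 or DMSO 35 d library S13_705, S14_715 or S15_716 (1.29 to 1.62, adjusted p = 0.0507 to 0.119). Col24a1 lost it without KU60019 15 d library S6_716 or KU60019 35 d library S16_705 or S17_715 or DMSO 15 d library S3_716 or DMSO 35 d library S13_705 or S15_716 (2.35 to 2.67, adjusted p = 0.0542 to 0.0869), and Col28a1 without DMSO 15 d library S1_705 (2.48, adjusted p = 0.0502).

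The next differences are the comparison after withdrawal at 15 d minus that at 15 d, before withdrawal. The difference was 1.76 for Col3a1, 1.43 for Col6a3, 0.91 for Col20a1, 3.57 for Col24a1, 2.79 for Col27a1 and 4.24 for Col8a2. It was 0.90 for Col16a1, 1.25 for Col1a2, 2.25 for Col28a1, 2.56 for Col6a2, 2.53 for Col6a1 and 1.74 for Col4a6. It was -1.18 for Col4a1, -1.02 for Col4a2 and -1.65 for Col12a1. The value of Col8a2 was 1.94 (adjusted p = 0.275) without S11_715 of KU60019 withdrawn after 15 d, and 8 other libraries left out singly ended its call too (adjusted p = 0.0522 to 0.102). Col6a3 lost its call without KU60019 15 d library S4_705 or S5_715 or withdrawn KU60019 library S11_715 or DMSO 15 d library S1_705 or S3_716 or withdrawn DMSO library S7_705, S8_715 or S9_716 (0.74 to 1.5, adjusted p = 0.0568 to 0.239). Col28a1 lost it without KU60019 15 d library S5_715 or S6_716 or withdrawn KU60019 library S10_705 or DMSO 15 d library S1_705 or withdrawn DMSO library S8_715 or S9_716 (1.35 to 2.23, adjusted p = 0.0815 to 0.171), and Col4a6 without KU60019 15 d library S5_715 or withdrawn KU60019 library S10_705 or DMSO 15 d library S1_705 or withdrawn DMSO library S9_716 (1.10 to 1.63, adjusted p = 0.0507 to 0.0726).

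The last differences are the comparison after withdrawal at 35 d minus that at 35 d, before withdrawal. The difference was 2.72 for Col3a1, 1.24 for Col5a2, 1.90 for Col9a3, 2.82 for Col20a1, 2.04 for Col27a1, 2.12 for Col9a2 and 0.66 for Col16a1. It was 1.12 for Col1a2, 1.42 for Col4a1, 1.47 for Col4a2, 1.38 for Col12a1, 4.62 for Col13a1 and 1.04 for Col6a2. The remaining values were 1.49 for Col6a1, 1.60 for Col23a1, 0.96 for Col1a1, 4.58 for Col14a1, 2.79 for Col11a2 and 2.11 for Col4a5. Of all these genes, 5 did not pass with 1 library left out. Col1a1 lost its call without KU60019 35 d library S16_705 or S18_716 or withdrawn KU60019 library S23_715 or DMSO 35 d library S14_715 or S15_716 or withdrawn DMSO library S19_705, S20_715 or S21_716 (0.67 to 0.99, adjusted p = 0.0521 to 0.148). Col6a2 lost it without KU60019 35 d library S17_715 or S18_716 or withdrawn KU60019 library S22_705 or S23_715 or DMSO 35 d library S14_715 or S15_716 or withdrawn DMSO library S20_715 (0.88 to 1.07, adjusted p = 0.0523 to 0.0892), and Col27a1 without KU60019 35 d library S16_705 or withdrawn KU60019 library S24_716 or DMSO 35 d library S15_716 or withdrawn DMSO library S20_715 or S21_716 (1.71 to 1.93, adjusted p = 0.0544 to 0.0704). Col9a2 lost it without DMSO 35 d library S15_716 (1.84, adjusted p = 0.0504) and Col23a1 without withdrawn DMSO library S20_715 (1.35, adjusted p = 0.0522). DMSO withdrawn after 35 d, which enters each of these, was the group with high proliferation markers.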

How the results depend on the processing

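Across 3283 values of named genes under other settings, 3080 kept direction and side of the threshold, 144 lost the call, 58 gained one and 1 reversed: Col16a1 after withdrawal at 35 d, -0.42 by edgeR and 0.0496 by limma on log2(TPM + 1). With 1 library left out, 2456 of 2676 were the same, 187 lost the call and 33 gained one.

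The difference in summed TPM after withdrawal at 35 d (KU60019 minus DMSO, 116.2) was -3054.6 in summed CPM and -306.6 to 406.8 with 1 library left out (-306.6 without withdrawn DMSO library S19_705, -235.4 without withdrawn KU60019 library S23_715). Between DMSO 35 d and 15 d (2414.0) it ranged from -86.2 (without DMSO 15 d library S2_715) to 4289.7. The mean log2(TPM + 1) over the 44 genes weighs each gene alike. Its difference was 0.579 after withdrawal at 35 d (exact p = 0.10, groups apart with KU60019 higher) and -0.285 after irradiation (exact p = 0.40, groups overlapping). On the same scale the median of all genes tested by limma shifted by 0.319 and -0.164, so these differences include a shift of the scale. The causes were not tested.

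Counts of called genes moved as follows. At 15 d, 23 became 15 to 26 with 1 library left out. Without the libraries over 0.4% rRNA, which leaves 1 library of DMSO withdrawn after 35 d, fewer were called after withdrawal at 35 d. The same held for the differences between the comparisons after and before withdrawal at 35 d. Limma called 6 of the 11 differences between 35 d and 15 d. It called 7 (4 positive, 3 negative) against 15 between the comparisons after and before withdrawal at 15 d. Between KU60019 withdrawn after 15 d and KU60019 15 d it called 15 against 23 genes. Between DMSO 35 d and 15 d, 2 calls became 1 with library size alone, 1 without filter, 1 by limma, 7 by DESeq2 (4 higher, 3 lower), 4 with the length trend removed, 0 by edgeR with only the compared groups (14 at an unadjusted p under 0.05), and 1 to 3 with 1 library left out. Between KU60019 withdrawn after 35 d and KU60019 35 d, 4 became 7 by DESeq2, 12 with only the compared groups and 2 to 4 with 1 library left out. Between DMSO withdrawn after 15 d and DMSO 15 d, 16 became 10 with only the compared groups and 9 to 18 with 1 library left out.

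With a replicate block, 23 genes were called for KU60019 at 15 d (21 lower, 2 higher), and the block changed no call there. There all 6 libraries correlated best with their own number, against 0 to 3 of 6 in the other comparisons, where the numbers do not meet the rule for pairing. The numbers may still mark a shared source: Schwann cell markers were lowest in the library ending in _705 in 8 of 9 groups and highest in _716 in 7, and macrophage and leukocyte markers highest in _705 in 8, as noticed after the values had been seen. The block moved the DMSO 35 d against 15 d count to 6 and the other counts by less than 1.5 times. Leaving out a library leaves groups of 2, and few reads limit Col6a4, Col4a4, Col13a1, Col22a1, Col2a1 and Col9a2.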
